A study of Mus musculus with 14 samples.

Results

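The genes described here encode the respiratory chain and ATP synthase of mitochondria, the 5 complexes that carry electrons from food to oxygen and make ATP. Their subunits come from separate genomes. The small circular genome inside the mitochondrion encodes core subunits of complexes I, III, IV and V, and the nucleus encodes the other subunits of those complexes, all of complex II and the assembly factors. Mitochondrial genes are copied into long precursor RNAs that are cut into separate mRNAs, so their levels depend on processing and decay as well as on transcription. Members were chosen by symbol (mt-Nd, mt-Co, mt-Cytb and mt-Atp for the mitochondrial genome; Nduf, Sdha to Sdhd, Uqcr, Cox4 to Cox8 and Atp5 for the nucleus) where the mean level reached 5 CPM (counts scaled to a fixed library size) in at least 1 of the 6 groups, pseudogenes left out. The rule found 102 members among 34866 genes, 13 mitochondrial and 89 nuclear, of which 77 encode subunits and 12 carry the assembly factor symbols Ndufaf and Sdhaf. All 102 passed the filter on low counts in each line. Another 8 of the 110 genes with such symbols stayed under the threshold: Cox8c, Cox6b2, Cox8b, Cox4i2, Ndufa4l2, Cox7b2, Cox7a1 and Cox6a2. The nearest gene outside was Cox6a2, whose highest group mean was 4.86 CPM. The nearest members were Sdhaf4 at 6.95 and Ndufb4 at 9.12 CPM.

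The expression data come from 3 mouse tumour lines: CT26, a colorectal carcinoma of BALB/c mice, E0771, a mammary carcinoma of C57BL/6 mice, and MC38, a colon adenocarcinoma of C57BL/6 mice. Each line received 0.5 ug/ml of an agonist of RIG-I, the cytosolic sensor of viral RNA, or of a control agonist, at 100000 cells per well, and RNA was taken 24 h later. CT26 had 3 libraries per agonist, and E0771 and MC38 had 2 each, 14 in all. CT26 and E0771 were kept in RPMI and MC38 in DMEM, each with fetal bovine serum, and no untreated cells were analysed here, so the control agonist is the baseline of every change. The libraries were poly(A)-selected and stranded. Most mitochondrial mRNAs carry short poly(A) tails, so the level of a mitochondrial mRNA in such libraries and the extent of its polyadenylation cannot be told apart. Nothing in the labels says that replicates were separate cultures, and p-values then measure only the spread between these libraries.

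CT26 libraries held 32826742 to 40564102 counts, E0771 libraries 12413347 to 13399247 and MC38 libraries 12347361 to 18964563. The interferon-response genes Ifnb1, Isg15, Ifit1 and Irf7 rose in all 3 lines. Of 7 epithelial markers, 2 passed the filter on low counts in CT26, 1 in E0771 and 0 in MC38. Epcam and Cdh1 were at or near 0 in all 6 groups although the lines are labelled carcinomas. Of the 2 tested in CT26, Krt18 was called, lower, and no epithelial marker was called in the other lines. Among leukocyte markers, Ptprc, Cd3e, Itgam, Adgre1, Csf1r and Nkg7 averaged under 1 CPM in each group, and Cd68 passed the filter on low counts and was not called. Of 4 endothelial markers, Kdr was higher in CT26. Of 5 fibroblast markers, Pdgfra, Pdgfrb and Col1a1 were lower in CT26 and in MC38. Their part in the results below was not tested.

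The mouse nuclear genome holds a stretch of chromosome 1 that is a nearly exact copy of part of the mitochondrial genome, and 7 of its annotated pseudogenes match mitochondrial members. Reads from stretches that are identical in gene and copy cannot be told apart, so the sequences come before the values. The pairs below show 60 bases of the sense strand in GRCm38, with differing bases in capitals. The mt-Co2 stretch (chrM:7013-7072, plus strand) and its counterpart Gm28661 (chr1:24615506-24615565, minus strand) show no difference, and the 2 genes were identical over the 681 bases compared.
mt-Co2: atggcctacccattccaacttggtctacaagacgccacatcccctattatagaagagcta
Gm28661: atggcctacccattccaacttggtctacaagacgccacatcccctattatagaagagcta

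The start of mt-Nd3 (chrM:9459-9518, plus strand) and Gm28438 (chr1:24613060-24613119, minus strand) differ by 1 substitution in 345 bases, T3C, with positions counted from the gene's start and the mitochondrial base given before the number.
mt-Nd3: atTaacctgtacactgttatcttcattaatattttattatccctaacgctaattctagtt
Gm28438: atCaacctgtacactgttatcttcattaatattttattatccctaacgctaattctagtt

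For mt-Co1 the copy Gm29216 (chr1:24616138-24616197, minus strand) covers 492 bases, and its 6 substitutions all lie within the stretch printed (mt-Co1 at chrM:6381-6440, plus strand).
mt-Co1: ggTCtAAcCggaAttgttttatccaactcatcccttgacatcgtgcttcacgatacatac
Gm29216: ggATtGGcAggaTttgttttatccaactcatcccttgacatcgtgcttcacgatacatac

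The copies of mt-Atp6 (Gm10925, 678 bases compared), mt-Co3 (Gm28437, 783), mt-Nd4 (Gm28439, 876) and mt-Nd4l (Gm10222, 294) were identical to their genes over those lengths. In all, 52 pseudogenes matched a member at 95% identity or more over at least 80% of the pseudogene, 11 of them a mitochondrial and 41 a nuclear member. They belonged to 9 mitochondrial and 23 nuclear members.

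The deposited tables placed a large and variable part of these reads on the pseudogenes. When the counts of gene and copy were joined, the copy of mt-Atp6 held 59.4%, 49.1% and 62.5% in the CT26 control libraries. In the RIG-I libraries of CT26 it held 13.5%, 9.76% and 62.6%. Copies of mt-Co2 held 22.6%, 22.4% and 38.3% with control and 0.0211%, 0.0225% and 16.4% with RIG-I agonist. RIG-I replicates 1 and 2 thus had small shares, and replicate 3 lay near or within the control range. The copy of mt-Co3 showed the same order, with 20.2%, 22.8% and 37.4% against 3.53%, 0.971% and 22.9%.

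Copies of some nuclear members ranked the CT26 libraries in a like way. The copy of Cox7a2l held 5.49%, 5.95% and 8.28% of joined counts with control and 0.144%, 0.451% and 7.95% with RIG-I agonist. In E0771 and MC38 the copies of mt-Atp6, mt-Co2 and mt-Co3 held at most 0.305% in any library. The copy of mt-Nd3 held 27.005% to 77.4% over the 14 libraries and those of mt-Co1 13.9% to 27.3%. Pseudogenes that match no member held 5.49%, 6.03% and 6.42% of all counts in the CT26 controls and 5.26%, 5.27% and 5.47% with RIG-I agonist. They held 1.69% to 2.72% in the other lines. Their relation to the shares above was not tested. Because of these shares, each mitochondrial result is given for the counts as deposited and with the counts of the copies added.

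**Figure D1:**
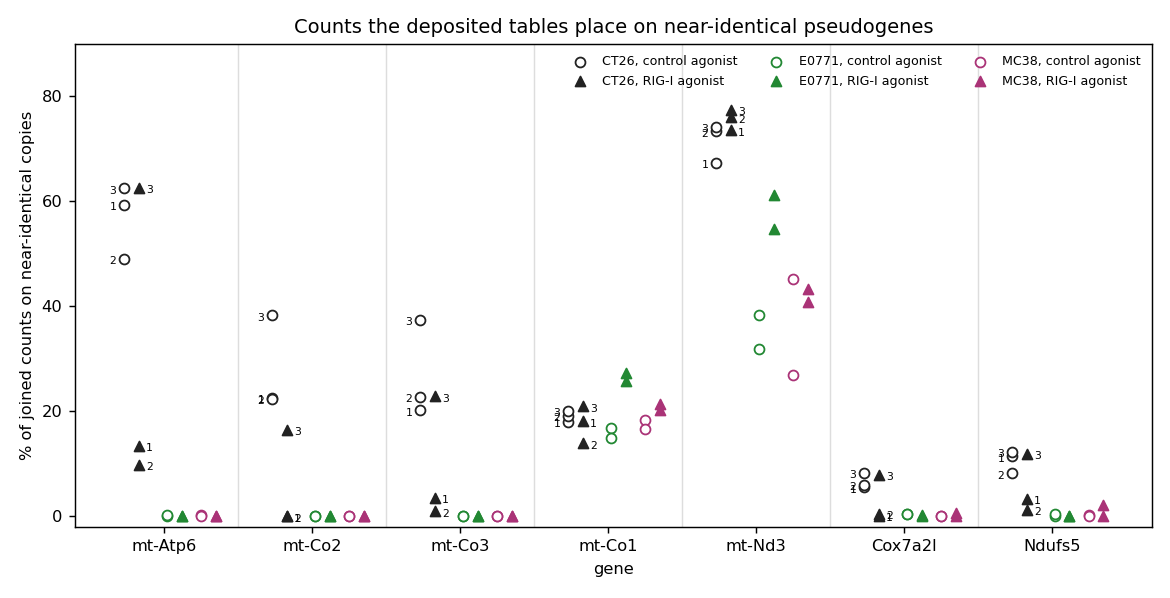
Percent of the joined counts of a gene and its near-identical pseudogenes that the deposited tables place on the pseudogenes (y axis), for 5 mitochondrial and 2 nuclear genes (x axis); each symbol is 1 library, open circles control agonist and filled triangles RIG-I agonist, with replicate numbers beside the CT26 symbols. RIG-I replicates 1 and 2 of CT26 lie far below the other CT26 libraries for mt-Atp6, mt-Co2 and mt-Co3, while E0771 and MC38 lie near 0 for these genes.

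Seen together, the 13 mitochondrial genes held 2.44% to 2.88% of all counts in the CT26 controls and 2.85% to 3.19% in the RIG-I libraries, 2.62% ± 0.231 (SD, n = 3) against 3.00% ± 0.173 (SD, n = 3). With copies added the ranges were 2.85% to 3.53% and 3.26% to 3.42%, and the groups overlapped. MC38 moved the other way, from 4.999% and 4.79% with control to 3.20% and 3.01% with RIG-I agonist. E0771 libraries differed widely within a group, with 2.82% and 5.80% for control and 0.811% and 2.21% for RIG-I agonist. The E0771 groups did not overlap, but its control libraries differed from each other more than the nearest libraries of the 2 groups did. In bulk RNA, fewer cells with a transcript and less of it per cell cannot be told apart.

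The 89 nuclear members together held far less, 0.868% to 1.30% of counts. In CT26 the control libraries ranged from 1.19% to 1.30% and the RIG-I libraries from 1.11% to 1.15%, and the groups did not overlap. In E0771 it was 1.02% and 1.05% against 0.907% and 0.916%, again without overlap. In MC38 the groups overlapped, with 0.922% and 0.902% against 0.912% and 0.868%. The ratio of mitochondrial to nuclear counts therefore moved in different directions by line. It went from 2.09 ± 0.157 to 2.65 ± 0.116 (SD, n = 3) in CT26 (2.33 ± 0.239 to 2.80 ± 0.0949 with copies added) and from 5.37 ± 0.0772 to 3.49 ± 0.0268 (SD, n = 2) in MC38. In E0771 it was 2.78 and 5.54 with control and 0.894 and 2.41 with RIG-I agonist. These sums describe the libraries and carry no test.

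**Figure D2:**
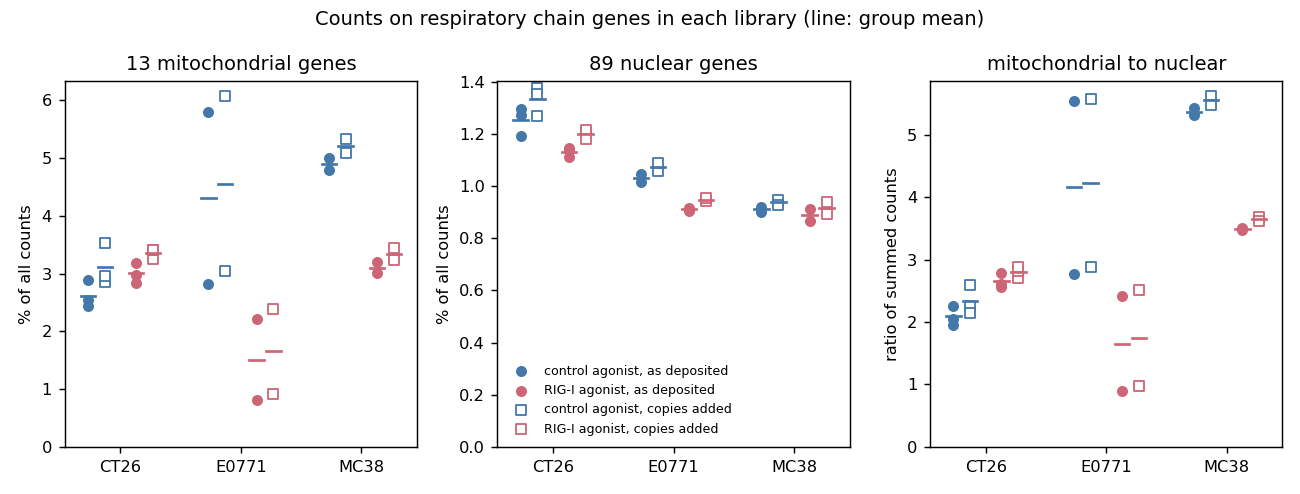
Percent of all counts on the 13 mitochondrial genes (left) and the 89 nuclear genes (middle), and the ratio of the sums (right), by line (x axis); each symbol is 1 library, blue control agonist and red RIG-I agonist, filled as deposited and open with copies added, and short lines are group means. The mitochondrial share is lower with RIG-I agonist in both MC38 libraries and spreads widely in E0771.

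By complex, the mitochondrial genes of complex IV held 1.17% to 1.30% of counts in the CT26 controls against 1.55% to 1.74% in the RIG-I libraries, and 1.45% to 1.76% against 1.85% to 1.94% with copies added. These groups did not overlap on either count. The mitochondrial genes of complexes I and V overlapped between CT26 groups with copies added. Of the nuclear parts in CT26, complexes II (0.0608% to 0.0651% against 0.0552% to 0.0568%), IV (0.235% to 0.261% against 0.215% to 0.226%) and V (0.486% to 0.514% against 0.435% to 0.444%) did not overlap, while complexes I and III did. In MC38 the mitochondrial genes of each complex were lower in both RIG-I libraries, from 1.23% and 1.20% to 0.754% and 0.724% for complex I, and the nuclear genes of complexes I, III, IV and V overlapped.

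Levels per length put the 2 genomes on 1 scale: counts were divided by transcript length and scaled to the same sum in each library (TPM), with copies added. Medians over genes were taken in each library and then averaged over the libraries of a group. With control agonist the median over the 7 mitochondrial complex I genes was 1418 TPM in CT26, 1982 in E0771 and 2430.0 in MC38. The median over the 36 nuclear complex I subunits was 127, 99.3 and 82.2 TPM. For complex IV the 3 mitochondrial genes had medians of 4989, 9332 and 13522 TPM, and the 12 nuclear genes 452, 256 and 216 TPM. With control agonist, each mitochondrial mRNA stood above each nuclear subunit gene of its complex in all 3 lines on this scale. The 4 nuclear subunits of complex II, which has no mitochondrial gene, had medians of 161, 151 and 139 TPM. The most abundant nuclear member per length was Atp5b, the catalytic beta subunit of ATP synthase, at 1245 TPM in CT26, 1225 in E0771 and 1362.5 in MC38.

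**Figure D3:**
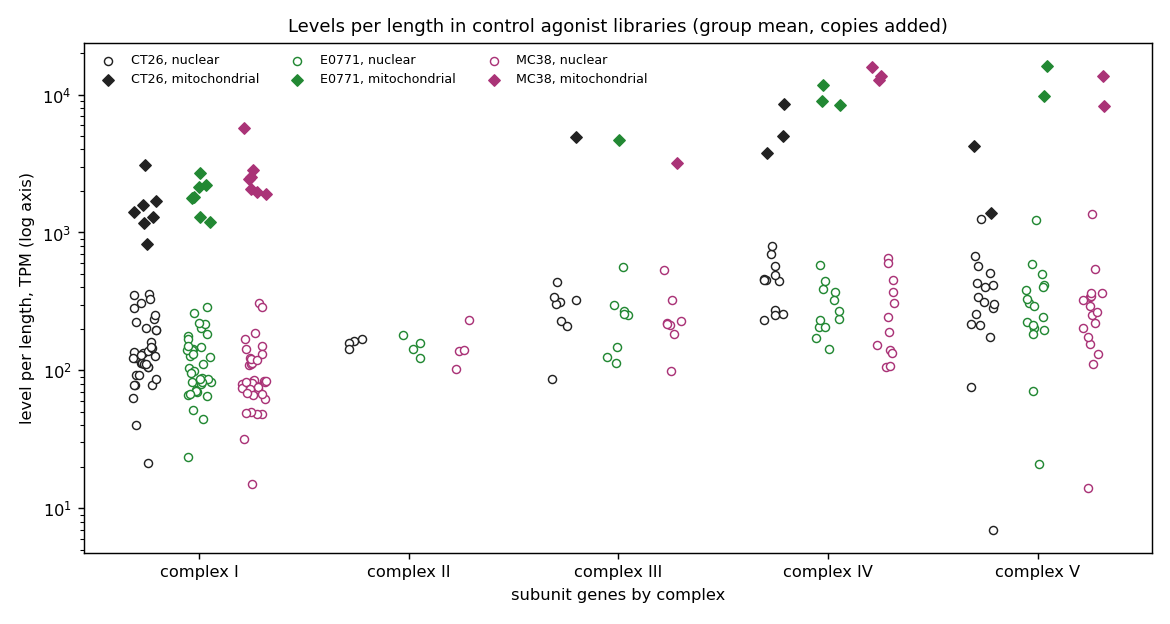
Level per length in TPM (y axis, log scale) of each subunit gene by complex (x axis), as the mean of the control agonist libraries of each line with copies added; open circles are nuclear and filled diamonds mitochondrial genes. Mitochondrial genes lie above the nuclear genes of the same complex, and complex II has nuclear genes only.

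In CT26, 35 of the 89 nuclear members fell and 3 rose with RIG-I agonist (edgeR's quasi-likelihood F test, Benjamini-Hochberg adjusted p under 0.05 over all 13893 genes tested). Over all genes 18.6% were called lower and 19.8% higher, 38.4% in all, against 42.7% of the nuclear members. These shares of all genes are also the background for the counts by complex below. The median log2 fold change of the nuclear members was -0.13 and that of all genes 0.001. The falls were small, none past 0.42 on the log2 scale, and 33 of them were among the 77 subunits, of which none rose. The 3 that rose were all assembly factors. With copies added, 39 fell and 3 rose (38.5% of genes called), Ndufb4, Atp5g2, Cox6c and Atp5l being the additional ones.

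Complex I, which takes electrons from NADH, had 12 of 36 nuclear subunits lower and none higher. They included 2 of 7 core subunits, Ndufs8, which holds iron-sulfur clusters on the path of the electrons (-0.29, SE 0.08, adjusted p = 0.0141), and Ndufs1 (-0.25). Among 29 accessory subunits 10 fell, led by Ndufb11 (-0.29, SE 0.07, adjusted p = 0.00794) and Ndufa1 (-0.28, SE 0.07, adjusted p = 0.00540). Ndufs8 lost its call when control replicate 2 or RIG-I replicate 3 was left out, where its adjusted p reached 0.0719.

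Complex II, which takes electrons from succinate, had 2 of 4 subunits lower. Sdha, its flavoprotein, was at 237, 247 and 255 CPM with control and 201, 197 and 197 CPM with RIG-I agonist. The groups did not overlap, and the log2 fold change was -0.31 (SE 0.05, adjusted p = 4.80e-04). Sdhc, a membrane anchor, fell by 0.24 on the log2 scale (SE 0.05, adjusted p = 0.00306).

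Complex III, which passes electrons from coenzyme Q to cytochrome c, had 2 of 8 lower, both among its 5 small accessory subunits. Uqcrh, the hinge protein that sits beside cytochrome c1, had the largest called fall of the nuclear members except Atp5s. Its levels were 117, 139.5 and 136 CPM with control and 102, 99.0 and 101 CPM with RIG-I agonist, and each RIG-I library lay below each control. The log2 fold change was -0.38 (SE 0.06, adjusted p = 4.60e-04). Uqcr11 changed by -0.32 (SE 0.09, adjusted p = 0.0147), a call lost without control replicate 2, control replicate 3 or RIG-I replicate 1, where adjusted p reached 0.115. The 3 core subunits were not called.

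Complex IV, cytochrome c oxidase, had the highest share of members lower, 9 of 12. Ndufa4, long placed in complex I and now counted in complex IV, was at 259.8, 307 and 319 CPM with control and 246, 241 and 235 CPM with RIG-I agonist. All 3 RIG-I values were below the lowest control, and the log2 fold change was -0.30 (SE 0.07, adjusted p = 0.00649). Cox7a2l, which joins complexes III and IV into supercomplexes, changed by -0.30 (SE 0.06, adjusted p = 0.00111; -0.36 with its copy added). Cox7a2 fell by 0.27 on the log2 scale (SE 0.06, adjusted p = 0.00414). The other 6 were Cox4i1, Cox5a, Cox6a1, Cox7b, Cox7c and Cox8a.

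Of the 17 nuclear members of complex V, ATP synthase, 8 fell. They included 4 of 5 genes of the F1 head and central stalk, Atp5a1, Atp5b, Atp5c1 and Atp5d, and none of the 3 genes that encode the rotating c ring, Atp5g1, Atp5g2 and Atp5g3. Atp5b was at 1885, 1945 and 1914 CPM with control and 1602, 1579.7 and 1541 CPM with RIG-I agonist. The difference was -0.28 on the log2 scale (SE 0.06, adjusted p = 0.00200). Its groups did not overlap. Atp5mpl, a small membrane subunit, changed by -0.28 (SE 0.06, adjusted p = 0.00262). Atp5s, a coupling factor, had the largest fall of the nuclear members, -0.42 (SE 0.15, adjusted p = 0.0470). It was also among the least abundant members, at 2.70 to 4.76 CPM. Its call was lost without any 1 of 5 of the 6 libraries (all but control replicate 2), with adjusted p up to 0.158.

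Among the 12 assembly factors 3 rose and 2 fell, Ndufaf3 and Ndufaf7, near the 19.8% and 18.6% of all genes. Ndufaf1, which helps build the membrane arm of complex I, was at 12.8, 11.8 and 13.5 CPM with control and 17.4, 18.2 and 16.4 CPM with RIG-I agonist. The groups did not overlap, and the log2 fold change was 0.45 (SE 0.08, adjusted p = 4.36e-04). Ndufaf4, another complex I factor (0.22, SE 0.08, adjusted p = 0.0347), and Sdhaf2, which helps insert FAD into Sdha (0.20, SE 0.07, adjusted p = 0.0298), rose less. Both lost their calls when any 1 library other than control replicate 3 was left out, which left only Ndufaf1 higher, and their adjusted p reached 0.131 and 0.107. The count of 35 lower members also depended on single libraries. It was 61 without control replicate 1, 20 without RIG-I replicate 1, 19 without control replicate 2 and 17 without RIG-I replicate 3.

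In MC38, where libraries of a group were closer to each other, few nuclear genes were called. None of the 89 rose and 6 fell, against 16.9% of all 12387 genes called lower and 35.8% called in either direction. The median log2 fold change was -0.04 for the nuclear members and -0.005 for all genes. Of the 6, Uqcrh, Sdha, Atp5c1 (the gamma subunit of the ATP synthase stalk) and Ndufb10 (an accessory subunit of complex I) were also lower in CT26. Ndufa6 and Ndufb4, accessory subunits of complex I, were called in MC38 and not in CT26, a difference that the tests between lines below did not call.

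Uqcrh in MC38 was at 108 and 100.2 CPM with control and 93.6 and 83.0 CPM with RIG-I agonist, without overlap, and its log2 fold change was -0.25 (SE 0.06, adjusted p = 0.00274). Atp5c1 fell by 0.13 on the log2 scale (SE 0.04, adjusted p = 0.0147), Ndufb10 by 0.16 (SE 0.05, adjusted p = 0.0212) and Sdha by 0.11 (SE 0.03, adjusted p = 0.0190). Ndufa6 changed by -0.29 (SE 0.09, adjusted p = 0.0202). Ndufb4 had the largest change, -0.48 (SE 0.17, adjusted p = 0.0306) as deposited and -0.27 (SE 0.07, adjusted p = 0.00653) with copies added, and its copies held 75.5% to 85.0% of the joined counts over all libraries. The Sdha call was lost without any 1 of the 4 libraries (adjusted p of 0.0619 to 0.0894). The calls of Ndufa6 and Ndufb4 were each lost without 3 of the 4 (all but RIG-I replicate 1), those of Atp5c1 and Ndufb10 without RIG-I replicate 2 or control replicate 1, and that of Uqcrh without RIG-I replicate 2, with adjusted p up to 0.236. With 1 spread shared by all 14 libraries no nuclear member was called lower in MC38. The number of lower members was 0 without RIG-I replicate 2, 2 without control replicate 1 and 13 without RIG-I replicate 1. DESeq2 called 1, among 18.9% of genes in either direction. No nuclear member rose in the edgeR test or in DESeq2, and 3 did so without RIG-I replicate 2, 1 without control replicate 1 and 1 without control replicate 2. An unadjusted p under 0.05 was reached by 9 of the 89 members in either direction and by 44.2% of all genes. Shares of all genes with 1 library left out are not given, so the counts without a library have no background.

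In E0771 no member of either genome was called, among 1.56% of 11728 genes called, 1.53% higher and 0.0256% lower, nor with copies added (1.57% of genes, 1.55% higher and 0.0256% lower). The median log2 fold change of the nuclear members was -0.16 and that of all genes -0.008, and 76 of the 89 were negative. Unadjusted p was under 0.05 for 12 of the 89 nuclear and 7 of the 13 mitochondrial members, and for 10.6% of all genes. DESeq2 called 2 nuclear and 1 mitochondrial, among 3.56% of genes. The largest nuclear difference was again in Uqcrh, at 82.3 and 98.7 CPM with control and 47.9 and 43.2 CPM with RIG-I agonist. The groups did not overlap, but its log2 fold change of -0.99 (SE 0.15) had an adjusted p of 0.0650. Ndufb10 was next, at 67.1 and 65.5 against 39.6 and 42.6 CPM without overlap (-0.69 on the log2 scale, SE 0.13, adjusted p = 0.101). Across the 3 lines 51 of the 89 nuclear members and 8 of the 13 mitochondrial ones had negative values in each line. The same share over all genes was not computed, so these counts have no background.

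**Figure D4:**
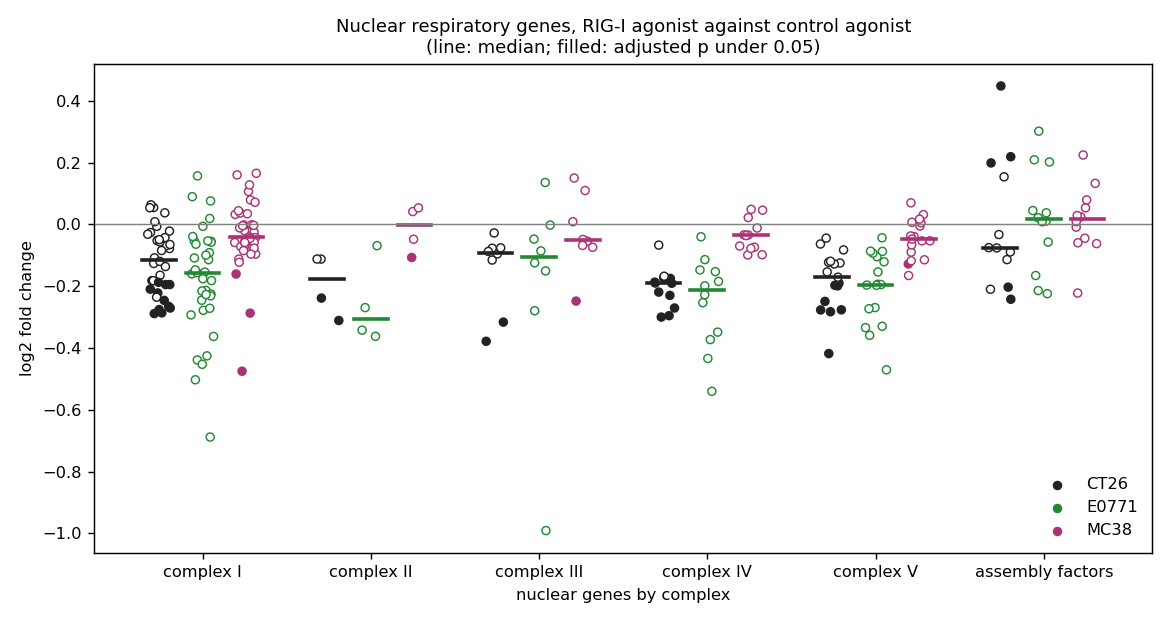
Log2 fold change of RIG-I agonist over control agonist (y axis) for each nuclear gene, by complex with assembly factors apart (x axis); each circle is 1 gene, coloured by line and filled where the adjusted p is under 0.05, and lines are medians. CT26 has filled circles below 0 in each complex, MC38 has few, and the E0771 gene at the bottom is Uqcrh at -0.99.

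For the mitochondrial genes of complex IV, the calls in CT26 and MC38 had opposite directions. In CT26 as deposited, 3 rose, all of complex IV, and 1 fell (all genes: 19.8% and 18.6%). mt-Co1, the catalytic subunit of cytochrome c oxidase (chrM:5328-6872), was at 7918, 8183 and 9755 CPM with control and 10261, 11376 and 10523 CPM with RIG-I agonist. No control reached the lowest RIG-I library, and the log2 fold change was 0.31 (SE 0.08, adjusted p = 0.00614). With its copy added the levels were 9653, 10127 and 12205 against 12526, 13211 and 13319 CPM, still without overlap, and the log2 fold change was 0.29 (SE 0.09, adjusted p = 0.0187).

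mt-Co2, which takes electrons from cytochrome c (chrM:7013-7696), was at 1980.4, 1989.9 and 1919.8 CPM with control and 3193, 3196 and 2668 CPM with RIG-I agonist. The log2 fold change as deposited was 0.62 (SE 0.07, adjusted p = 2.31e-05). Joined with its identical copy it was at 2559, 2563 and 3113 against 3194, 3197 and 3193 CPM. Control replicate 3 then lay close to the RIG-I libraries, and the log2 fold change shrank to 0.22 (SE 0.08, adjusted p = 0.0470). mt-Co3 (chrM:8607-9390) went from 0.51 (SE 0.09, adjusted p = 7.82e-04) to 0.18 (SE 0.08, adjusted p = 0.118) when its copy was added, and mt-Atp6 from 0.82 (SE 0.41, adjusted p = 0.207) to 0.07 (SE 0.11, adjusted p = 0.668). The fall of mt-Nd3, -0.34 (SE 0.08, adjusted p = 0.00312), became -0.14 (SE 0.08, adjusted p = 0.182).

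With copies added, then, 2 of 13 mitochondrial genes were higher and none lower in CT26 (all genes: 19.8% and 18.6%). With copies added, leaving out control replicate 1 gave 1 higher (mt-Co1) and 6 lower (mt-Nd1, mt-Nd3, mt-Nd4, mt-Nd5, mt-Nd6 and mt-Cytb), and leaving out control replicate 3 gave 4 higher (mt-Co1, mt-Co2, mt-Co3 and mt-Atp6). Without any 1 of the other 4 libraries none was called. Shares of all genes with 1 library left out are not given, so counts without a library have no background here. With 1 spread shared by all 14 libraries, no mitochondrial member was called in CT26 as deposited. mt-Co1 with its copies lost its call when any 1 RIG-I library or control replicate 2 was left out (adjusted p up to 0.101). mt-Co2 with its copy was called only with all 6 libraries or without control replicate 3 (adjusted p up to 0.206 otherwise). As deposited, mt-Co1 lost its call without RIG-I replicate 2 or control replicate 1, and mt-Co3 without control replicate 1, where adjusted p reached 0.0849 and 0.0627. mt-Atp6 as deposited was called higher only when RIG-I replicate 3 was left out (adjusted p = 1.07e-05). Without control replicate 1, 1 mitochondrial gene was higher and 5 lower, among them mt-Nd1, mt-Nd4, mt-Nd5 and mt-Nd6. All 7 mitochondrial complex I genes had negative values in CT26, from -0.11 for mt-Nd6 to -0.34 for mt-Nd3 as deposited, and the remaining ones were mt-Nd1 at -0.15, mt-Nd2 and mt-Nd5 at -0.18, mt-Nd4 at -0.21 and mt-Nd4l at -0.30. A fit with the replicate number as a block called mt-Nd4l lower as well (-0.28, adjusted p = 0.0310), so that 2 mitochondrial genes were lower in that fit (38.2% of genes called). mt-Cytb, the electron-carrying core of complex III, was at -0.12 and mt-Atp8 at 0.15, neither called.

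In MC38 each of the 13 mitochondrial genes fell as deposited, and 12 with copies added (36% of genes called, 17.1% lower). With 1 spread shared by all 14 libraries none of the 13 was called (adjusted p of 0.0619 to 0.829), although all 13 stayed negative. mt-Nd1, a core subunit in the membrane arm of complex I (chrM:2751-3707), was at 3843 and 3682 CPM with control and 1646 and 1537 CPM with RIG-I agonist. This was the largest change, -1.24 on the log2 scale (SE 0.04, adjusted p = 1.55e-16), and this gene has no copy on chromosome 1. At the other end mt-Cytb (chrM:14145-15288) was at 2527 and 2429 against 2021 and 1929.9 CPM, still without overlap, at -0.33 (SE 0.03, adjusted p = 1.91e-07).

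The other complex I genes of MC38 changed by -0.83 (mt-Nd4l), -0.77 (mt-Nd2), -0.56 (mt-Nd4), -0.34 (mt-Nd5) and -0.34 (mt-Nd6), each with an SE of 0.03 or 0.04. mt-Nd3 changed by -1.09 (SE 0.16, adjusted p = 0.0431) as deposited and -0.96 (SE 0.19, adjusted p = 0.0746) with its copy added. With its copy added, mt-Nd3 was called by DESeq2 (adjusted p = 2.00e-05) and by edgeR under the replicate block (adjusted p = 5.23e-169). Its call as deposited was also lost without control replicate 1 or 2, with adjusted p up to 0.124, and under the replicate block (adjusted p = 0.247, 39.8% of genes called). The complex IV genes fell by 0.64 (mt-Co1), 0.56 (mt-Co2) and 0.71 (mt-Co3) on the log2 scale. In complex V, mt-Atp6 changed by -0.71 (SE 0.05) and mt-Atp8, which overlaps it on the genome, by -0.90 (SE 0.12, adjusted p = 0.0280, and 0.0536 without RIG-I replicate 2). Where mt-Atp8 and mt-Atp6 (chrM:7766-7969 and chrM:7927-8607) overlap, reads cannot be assigned to either. The genes that lie last along the mitochondrial genome, mt-Nd5, mt-Nd6 and mt-Cytb, had the smallest falls in MC38. In E0771 mt-Nd5 and mt-Nd6 had the smallest. Of the mitochondrial members only mt-Nd6 is on the minus strand, so its position is not a place along the precursor RNA of the others. A relation to position was not tested.

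Mitochondrial genes in E0771 were negative in 13 of 13, with log2 fold changes from -0.54 (mt-Nd5) to -2.69 (mt-Nd4l), a median of -1.71, and standard errors of 0.33 to 1.18. Without RIG-I replicate 1 or control replicate 2, 11 were negative, and mt-Nd5 and mt-Nd6 became positive, up to 0.28 and 0.08. Leaving out 1 library moved mt-Nd2 to between -2.84 and -0.19 and mt-Nd3 to between -4.38 and -0.48. mt-Co1 was at 10260.0 and 12723 CPM with control and 2937 and 4784 CPM with RIG-I agonist. Its groups lay far apart, and the log2 fold change was -1.57 (SE 0.33, adjusted p = 0.152). mt-Atp8 ran from 727 and 2272 down to 137 and 387 CPM (-2.52, SE 0.73, adjusted p = 0.323). mt-Nd5 overlapped between groups, at 927 and 2339 against 430.5 and 1814 CPM. In each E0771 group replicate 2 had the higher mitochondrial levels, and none of the 13 differences passed the test. With the replicate number as a block, 24 nuclear and 10 mitochondrial members were called lower, against 10.4% of all genes. mt-Nd1 was at -2.003, mt-Nd2 at -1.30, mt-Nd3 at -2.14, mt-Nd4 at -1.71, mt-Nd6 at -0.65, mt-Cytb at -1.19, mt-Co2 at -1.20, mt-Co3 at -1.77 and mt-Atp6 at -1.99.

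**Figure D5:**
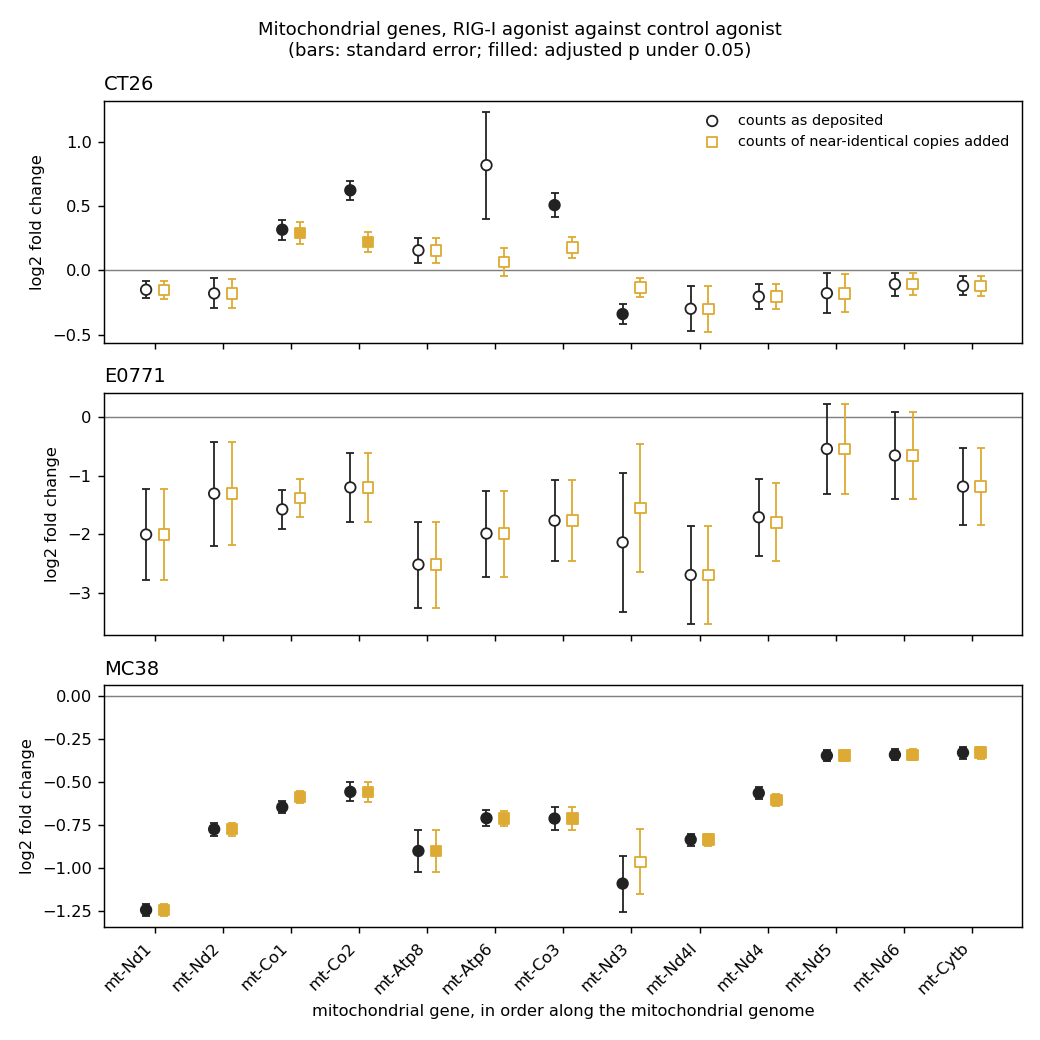
Log2 fold change of RIG-I agonist over control agonist (y axis, with standard error) of the 13 mitochondrial genes in their order along the genome (x axis), 1 panel per line; black circles are counts as deposited, yellow squares have copies added, and filled symbols have an adjusted p under 0.05. In MC38 all lie below 0, deepest at mt-Nd1 (-1.24), in CT26 adding the copies lowers mt-Co2, mt-Co3 and mt-Atp6, and in E0771 no symbol is filled.

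Differences in the response between lines were tested as interactions in 1 fit of all 14 libraries. That fit has 1 shared spread, a biological coefficient of variation of 0.122, between 0.202 in E0771 alone and 0.0304 in MC38 alone, so its p-values can be too small for E0771 and too large for MC38. Between CT26 and E0771 it called mt-Co1 (difference 1.85, SE 0.24, adjusted p = 9.87e-04; 1.63 with its copy added, adjusted p = 0.00182), Uqcrh (0.57, SE 0.14, adjusted p = 0.0412) and Ndufb10 (0.45, SE 0.09, adjusted p = 0.0166), among 3.88% of genes called, 1.06% higher and 2.81% lower (with copies added 3.89%, 1.07% and 2.81%). Between E0771 and MC38 it called Uqcrh (-0.77, SE 0.16, adjusted p = 0.0216) and Ndufb10 (-0.54, SE 0.10, adjusted p = 0.0145), among 2.11% of genes called. The values of Uqcrh and Ndufb10 were thus lowest in E0771. Uqcrh lost the call against CT26 without 7 of the 10 libraries of those lines (all 3 CT26 RIG-I, control replicates 1 and 3 of CT26 and replicate 2 of each E0771 group), with adjusted p up to 0.133, and the call against MC38 without E0771 control replicate 2, MC38 RIG-I replicate 1 or either MC38 control (adjusted p up to 0.122). Ndufb10 lost them without CT26 RIG-I replicate 3 (0.0510), and without MC38 RIG-I replicate 1 or either MC38 control (up to 0.0820). Fitted on the libraries of E0771 and MC38 alone, neither was called between those lines.

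Between CT26 and MC38 the edgeR fit of all 14 libraries called no member, among 3.8% of genes called. Unadjusted p was under 0.05 for 13 nuclear and 1 mitochondrial members and 18.8% of all genes, and DESeq2 called 4 and 1, among 7.23% of genes. A fit of the 10 libraries of these 2 lines was added after the data were seen. It called 16.2% of genes, 10.4% lower and 5.82% higher in CT26. Called members were 11 nuclear ones, all lower in CT26 and near the share of all genes, and 6 mitochondrial ones, all higher. The mitochondrial ones were mt-Nd1 (difference 1.01, SE 0.09), mt-Nd3 (0.66), mt-Co1 (0.88), mt-Co2 (1.10), mt-Co3 (1.14) and mt-Atp8 (0.97). With copies added mt-Atp6 (0.70) joined them, and mt-Co2 and mt-Co3 had differences of 0.70 and 0.81. The nuclear ones were Ndufb2, Ndufc2, Ndufs1, Sdha, Sdhc, Cox5a, Cox7a2l, Atp5a1, Atp5b, Atp5d and Atp5j, with differences from -0.27 to -0.44.

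Levels with control agonist differed between lines at most members, as they did at most genes. CT26 had 56 nuclear members above E0771 and 9 below (all genes: 37.2% and 33.1%, 70.3% in all), and 70 above MC38 and 7 below (37.8% and 35.8%, 73.6% in all). E0771 had 43 above MC38 and 14 below (31.5% and 32.6%, 64.1% in all). Where CT26 was compared, depth, mouse strain and the form of the library names differed together with the line. Where MC38 was compared, the culture medium differed together with the line. In those contrasts they cannot be told apart. Of the 13 mitochondrial members, 5 were lower in CT26 than in E0771, against 33.1% of all genes. Beside MC38, 6 were lower in CT26, against 35.8% of all genes, and none was called between E0771 and MC38. Adding the copies left 2 of the 5 and 5 of the 6, near or below the 33.1% and 35.9% of all genes called lower there. In fits of CT26 and E0771 alone, 66.8% of genes were called, 31.7% lower.

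Complex I accessory subunits led the nuclear differences. CT26 exceeded MC38 at Ndufa6 by 2.27 on the log2 scale (SE 0.13, adjusted p = 5.32e-09), at Ndufa2 by 2.19, at Ndufa3 by 1.91 and at Ndufb9 by 1.86. Against E0771 it was higher at Ndufa1 (1.67, SE 0.10, adjusted p = 5.95e-09), Ndufa2 (1.54), Uqcrb of complex III (1.60) and the assembly factor Ndufaf5 (1.52). E0771 exceeded MC38 at Ndufc2 (2.22, SE 0.33, adjusted p = 1.75e-04), Cox7a2l (1.45), Ndufa6 (1.37) and Sdhaf1 (1.13), and was lower at Ndufaf5 (-0.98), Atp5g1 (-0.62), Cox6a1 (-0.58) and Ndufa1 (-0.49). The 2 E0771 controls differed widely at Ndufc2, 74.0 and 154 CPM, as they did at Cox7a2l, 158 and 284 CPM. Of the mitochondrial genes, mt-Atp6 and mt-Atp8 differed most, with CT26 below E0771 by -2.96 and -2.60 and below MC38 by -2.57 and -2.22. Adding its copy brought mt-Atp6 to -1.73 and -1.34. mt-Co3 (-1.51 and -1.97) and mt-Nd3 (-2.17 and -2.09) followed, and mt-Nd3 was called in neither with its copy added (-0.92 in both, adjusted p = 0.294 and 0.287). As deposited it lost its call without any 1 CT26 control or E0771 control replicate 2 in the first contrast, and without any 1 CT26 control or any 1 MC38 library in the second, with adjusted p up to 0.612 and 0.109. mt-Co3 against E0771 was not called with its copy (-1.05, adjusted p = 0.0551) or without E0771 control replicate 2 (-0.49 as deposited, adjusted p = 0.324).

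Genes that make and process mitochondrial RNA were followed as lists. Of 21 processing and decay genes in the table, 9 rose and 3 fell in CT26 and 8 rose and 3 fell in MC38. Over all genes 19.8% rose and 18.6% fell in CT26 and 18.9% and 16.9% in MC38, the background for this and the following lists. Pnpt1, the polynucleotide phosphorylase of mitochondrial RNA decay and an interferon-responsive gene, rose most, at 87.5, 89.2 and 105 CPM with control and 200.3, 197 and 196 CPM with RIG-I agonist in CT26. Its log2 fold change was 1.08 (SE 0.07, adjusted p = 1.43e-08) there, 0.92 (SE 0.04, adjusted p = 1.12e-14) in MC38 and 0.96 (SE 0.17, adjusted p = 0.0936) in E0771. Ptcd1, an RNA-binding protein of the matrix, rose by 0.51 in CT26 and 0.245 in MC38, and Trmt10c, a part of mitochondrial RNase P, by 0.37 and 0.22. Fastkd5, needed for maturation of transcripts without flanking tRNAs, rose in both, by 0.305 in MC38. Hsd17b10, another part of RNase P, fell by 0.34 and 0.21 on the log2 scale. Lrpprc, which stabilises mitochondrial mRNAs (-0.17), and Rexo2 (-0.25) fell in CT26, and Fastk (-0.22) and Fastkd1 (-0.19) in MC38.

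Of 15 genes of mitochondrial transcription and DNA upkeep, Mterf1a (0.53), Mterf1b (0.38), Tefm (0.26) and Mgme1 rose and Tfb2m (-0.17) fell in CT26. Tfam, which packages mitochondrial DNA (0.28), and the helicase Twnk (0.27) rose and the polymerase Polg (-0.23) fell in MC38. Mterf1a and Mterf1b are close copies, and their counts are uncertain singly. The RNA polymerase Polrmt was not called in any line. Of the nuclear regulators of respiratory genes, 11 were tested in CT26 and 5 were called, against 38.4% of all genes. Ppargc1a (0.48) and Pprc1 (0.26) rose, while Hif1a (-0.45), Gabpa (-0.25) and Gabpb2 (-0.23) fell. Of 12 tested in MC38, Pprc1 rose by 0.17 and Gabpa fell by 0.17 on the log2 scale.

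Assembly factors outside the rule moved in either direction. For complex IV, 6 of 24 rose and 5 fell in CT26, near the 19.8% and 18.6% of all genes, with Cox18 (0.69), Sco2 (0.45) and Cox17 (0.44) on 1 side and Higd1a (-0.55), Cox20 (-0.45) and Cox7a2l, itself a member, on the other. In MC38, 4 rose, led by Cox18 (0.52), Cox17 (0.39) and Cox15 (0.33), and Cox20 fell (-0.75). Cox17 delivers copper to the enzyme. For complex I, Tmem126b (0.33) and Foxred1 (0.30) of 10 rose in CT26 and Acad9 (-0.16) fell in MC38. Of 6 complex III factors only Uqcc1 was called (0.26 in CT26), and of 5 ATP synthase factors only Atpif1 (-0.30 in CT26). Among 18 electron carriers and coenzyme Q genes, 3 rose and 3 fell in CT26 and 2 rose and 1 fell in MC38, shares below those of all genes. Cycs, cytochrome c, rose by 0.27 and 0.37, and Coq10b by 0.29 and 0.31. Pdss1 (0.20) also rose and Coq3 (-0.41), Coq9 (-0.28) and Coq7 (-0.26) fell in CT26, and Etfdh (-0.20) fell in MC38. No gene of these lists was called in E0771.

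Among the relatives of Ndufa4, AA467197 is the mouse counterpart of human C15orf48, whose protein can take the place of NDUFA4 in complex IV during inflammation. It was at 9.63, 8.46 and 10.3 CPM with control and 35.4, 34.2 and 33.2 CPM with RIG-I agonist in CT26. This rise of 1.86 on the log2 scale (SE 0.08, adjusted p = 3.16e-10) stood beside the fall of Ndufa4 in the same cells. In MC38 it went from 1.22 and 1.07 to 3.09 and 3.26 CPM (1.46, SE 0.29, adjusted p = 4.81e-04), while Ndufa4 was at -0.04. In E0771 the levels were 2.72 and 1.40 against 9.71 and 5.49 CPM (1.88, SE 0.49, adjusted p = 0.261), and Ndufa4l2 was at -1.30 (adjusted p = 0.607). Ndufa4l2 averaged under 1 CPM in each group.

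The tissue forms of complex IV subunits were represented almost wholly by the widely expressed ones. Of 16 such genes and c-ring genes, 6 fell in CT26: Cox4i1, Cox6a1, Cox7a2, Cox7b, Cox8a and the muscle form Cox7a1, which averaged 1.16 CPM with control and 0.479 CPM with RIG-I agonist (-1.26, SE 0.27, adjusted p = 0.00215). In MC38 the muscle form Cox6a2 rose by 1.56 (SE 0.41, adjusted p = 0.00532) from 0.603 to 1.87 CPM. Cox6b1 was at -0.17 in CT26, -0.23 in E0771 and -0.07 in MC38, uncalled. Cox7b2 averaged about 1 CPM in MC38 only. Cox4i2, Cox6b2, Cox8b and Cox8c stayed under 1 CPM in each group. The c-ring genes, whose mature protein is the same, were at -0.08 (Atp5g1), -0.04 (Atp5g2) and -0.13 (Atp5g3) in CT26, and copies held 64.7% to 80.05% of the joined counts of Atp5g2 and 24.3% to 76.3% of those of Atp5g1.

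Promoter sequence is shown for Uqcrh and Ndufb10, whose responses were called as different between lines. RefSeq windows from 250 bases before to 50 after the start were matched for 76 of the 89 nuclear members. Motifs of factors known to act on respiratory genes were searched on both strands as exact letters: NRF1 as GCGCA followed directly by TGCGC, GABPA as CCGGAAGT, YY1 as AAGATGGC and ESRRA as TCAAGGTCA. NRF1's letters were in 9.21% of the 76 and 1.07% of 27025 genes, YY1's in 14.5% and 3.19%, GABPA's in 6.58% and 4.31%, and ESRRA's in 2.63% and 0.466%. Of the 29 members lower in CT26 with a window, 1 held NRF1's letters, 3 GABPA's, 3 YY1's and none ESRRA's. The Uqcrh window (chr4:116075021-116075320, minus strand, GRCm38.p6) held 1 match, GABPA's letters on the opposite strand, in capitals. The Ndufb10 window (chr17:24724374-24724673, minus strand) held none of the 4.
Uqcrh: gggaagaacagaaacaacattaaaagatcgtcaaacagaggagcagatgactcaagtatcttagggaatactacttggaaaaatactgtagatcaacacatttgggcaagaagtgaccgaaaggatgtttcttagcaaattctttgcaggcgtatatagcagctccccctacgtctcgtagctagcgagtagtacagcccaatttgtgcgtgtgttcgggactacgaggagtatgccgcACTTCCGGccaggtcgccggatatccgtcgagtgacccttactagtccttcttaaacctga
Ndufb10: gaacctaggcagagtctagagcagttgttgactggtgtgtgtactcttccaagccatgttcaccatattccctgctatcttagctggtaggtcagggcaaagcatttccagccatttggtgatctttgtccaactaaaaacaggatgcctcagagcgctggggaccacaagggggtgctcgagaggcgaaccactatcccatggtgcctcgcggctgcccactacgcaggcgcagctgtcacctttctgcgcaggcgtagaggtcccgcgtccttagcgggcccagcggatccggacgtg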

How the data were processed

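RNA-seq of 14 libraries was analysed from 3 deposited tables of estimated counts per gene, 1 per line. Salmon, DESeq2 and the genome build GRCm38 appear, per the submitters' processing notes, with neither versions nor the step each served. In these tables as deposited, 69.1% to 85.3% of the values of a library were whole, and counts were rounded before testing. Of 34866 gene IDs, 34652 had a symbol. Grouping followed the sample labels. edgeR 4.0.16 in R 4.3.3 (TMM scaling within a line, a low-count filter with a minimum count of 10, robust quasi-likelihood F test, prior count 0.125, Benjamini-Hochberg adjustment over all genes tested) gave the adjusted p-values, called at under 0.05. CT26, E0771 and MC38 were fitted separately. Differences between lines came from 1 fit of all 14 libraries. CPM values use TMM-scaled library sizes within a line.

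Copies are annotated pseudogenes that BLAST 2.17.0 matched to a member at 95% identity over 80% of their length or more. TPM was computed from the counts and the median length of each gene's protein-coding transcripts. A count of 3 corresponds to 0.0740 to 0.243 CPM per library, counting error only. Same-numbered CT26 libraries correlated at 0.122, 0.187 and 0.258, and differently numbered ones at -0.258 to 0.137. These ranges overlap, so pairing by number was not established from the data, and the labels do not give it. On simulated counts with 200 genes changed 2-fold, 100% were recovered in CT26, 33% in E0771 and 99% in MC38. The interaction of CT26 and E0771 recovered 66.5%. Of the calls, 6.98% were false in CT26, 4.35% in E0771, 2.94% in MC38 and 4.32% in the interaction. All genes were simulated with 1 spread. Called nuclear changes within a line were smaller than 2-fold, and recovery of such changes was not simulated. Alternatives were DESeq2 1.42.0, no filter, a shared spread, a replicate block, joined copies, fits of 2 lines and leaving out each library; joined copies combined with another choice or used between lines, and the 2-line fits that include CT26, were chosen after seeing the data. Named genes were all mitochondrial members and, per line and complex or contrast, the called members with the largest changes. The members and lists were chosen with earlier results of these data known. A leukocyte marker of the lists is not reported here.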

Additional observations from a re-analysis of the deposited data

Results flagged for a closer look

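The RIG-I response differed between lines for 3 genes by the interaction test in 1 edgeR quasi-likelihood fit of all 14 libraries. For mt-Co1 the log2 fold change was higher in CT26 than in E0771 by 1.85 (adjusted p = 9.87e-04), and no single library left out ended the call. For Uqcrh the difference between CT26 and E0771 was 0.57 and that between E0771 and MC38 was -0.77. For Ndufb10 these differences were 0.45 and -0.54. The Uqcrh and Ndufb10 calls each depended on single libraries, and the comparisons share the E0771 libraries.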

How the results depend on the processing

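No called value of a named gene changed sign under the alternatives run. The uncalled values of mt-Nd5 and mt-Nd6 in E0771 turned positive, up to 0.28 and 0.08, with 1 library left out. In CT26, with 1 spread shared by all 14 libraries, 1 nuclear member was higher and 0 mitochondrial members were called in either direction. The mitochondrial members lower there numbered 3 with DESeq2, 2 without the filter, 2 with the replicate block and 0 with copies added. In E0771 the nuclear members lower numbered 2 with DESeq2, 1 without the filter and 16 with the shared spread, and the mitochondrial ones 1, 1 and 3. DESeq2 called 3.56% of all genes in E0771. Shares of all genes are not given for DESeq2 in CT26, the shared spread or the fits without the filter, so those counts have no background. In MC38 the nuclear members higher numbered 1 without the filter, the nuclear members lower 1 with DESeq2 and 0 with the shared spread, and the mitochondrial members lower 0 with the shared spread.

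With the replicate number as a block, the E0771 counts were 24 nuclear and 10 mitochondrial members lower (25 and 10 with copies added), where 10.4% of genes were called lower, and 3 nuclear members were higher in MC38 (3 with copies added). Same-numbered libraries there correlated at 0.703 in E0771 and -0.0542 in MC38, over too few pairs to show pairing. In CT26 the block changed no other count by over 1.5 times.

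For the response, CT26 minus E0771 gave 1 nuclear member in fits of 2 lines, with or without copies added, and 6 mitochondrial with DESeq2. CT26 minus MC38 gave 4 nuclear and 1 mitochondrial with DESeq2, 1 mitochondrial without the filter, 11 and 6 in the fit of 2 lines and 12 and 7 with copies added as well. E0771 minus MC38 gave 4 nuclear and 1 mitochondrial with DESeq2 and 0 nuclear in fits of 2 lines, with or without copies added. Over all genes, the fits of 2 lines as deposited called 1.6%, 16.2% and 0.665% for these differences in turn. DESeq2 called 7.23% of genes for CT26 minus MC38, and its shares for the other differences are not given. With control agonist, mitochondrial members called numbered 3 without the filter, 2 with copies added and 2 with copies added in 2 lines for CT26 minus E0771. Those fits with copies added called 70.3% and 66.8% of all genes. For CT26 minus MC38 the members called numbered 10 in 2 lines and 11 with copies added as well. Both of these fits called 77.2% of all genes, so these counts lie near that share. DESeq2 called 1 for E0771 minus MC38. Shares of all genes are not given for DESeq2 or the fit without the filter in these control contrasts. The mitochondrial percent with copies added was 3.11 and 3.36 for CT26 control and RIG-I and 5.21 and 3.346 for MC38, and 3.19 of protein-coding counts for CT26 RIG-I.

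Leaving out each library in turn gave 1 to 3 nuclear members higher and 17 to 61 lower in CT26, with 1 to 4 mitochondrial higher and 1 to 5 lower. MC38 gave 0 to 3 nuclear higher, 0 to 13 lower and 12 to 13 mitochondrial lower. The response gave 0 to 3 nuclear and 1 to 8 mitochondrial for CT26 minus E0771, and 0 to 4 of each for E0771 minus MC38. The control contrasts gave 2 to 6 mitochondrial for CT26 minus E0771 and 0 to 2 for E0771 minus MC38. The causes were not tested. Shares of all genes called with 1 library left out are not given, so these counts have no background. The biological coefficient of variation was 0.202 in E0771, 0.102 in CT26 and 0.0304 in MC38, and E0771 had the fewest calls.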
